A study of Mus musculus with 7 samples.

Results

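The genes described here encode the machinery by which a presynaptic terminal fills, docks, fuses and retrieves its synaptic vesicles. The list holds 52 mouse genes, chosen by name, and 50 of them had a probe set that reached a level of 50 on at least 1 array, of 12315 named genes in all that did. In the terminal, vesicles are loaded with transmitter, held in reserve by synapsins, brought to the active zone by Rab3 proteins and scaffolds, and primed for fusion. Calcium that enters during an action potential binds synaptotagmins and related sensors, SNARE proteins on the vesicle and the plasma membrane then zip together, and the vesicle membrane is afterwards taken back by clathrin adaptors, endophilins, synaptojanin and dynamins. Cortical neurons in culture form such terminals as they mature, and the genes of this machinery are among the most used markers of a presynaptic ending.

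RNA was measured on Affymetrix mouse expression arrays, 1 array for each sample, in neuronal cultures from the cortex of embryonic day 16 C57/Bl6J mice after 16 days in vitro. The paper calls these cultures mixed, and luciferase neurons and blank neurons below name whole cultures. The luciferase group (n = 4, arrays 1 to 4) received a lentivirus that carries a short hairpin RNA against luciferase, an insect gene that mouse cells lack, and a fluorescent reporter, and was harvested 2 weeks later. The blank group (n = 3, arrays 5 to 7) was not transduced, so that virus, reporter and hairpin differ from blank together and cannot be told apart. The comparison describes how far these genes differ between cultures given the control virus, with its hairpin and reporter, and untransduced cultures. The methods describe replicate wells on randomized plates and leave out 1 untransduced sample for RNA quality, and neither they nor the labels name separate litters or days, so the p-values cover the spread from well to well, which may be technical. Levels are array intensities on a linear scale, changes are log2 differences of luciferase minus blank, and a gene passed the test where its adjusted p from limma was 0.05 or less.

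Of the 50 measured genes, 6 rose in luciferase neurons, 2 fell, and 42 did not pass the test. The genes that rose were *Doc2b*, *Slc17a7*, *Stxbp5*, *Syn2*, *Sypl* and *Synj1*, and the genes that fell were *Sh3gl3* and *Syt5*. Their changes ran from -0.56 for *Sh3gl3*, an endophilin of vesicle retrieval, to 0.52 for *Doc2b*, a calcium sensor of vesicle release. The 8 genes are 16% of the members, where 25.4% of all named genes passed the same test. By direction, 12% of members rose against 16.9% of all named genes, and 4% fell against 8.55%. None of the 8 reached 1.5-fold as well, a size that 4.08% of all named genes passed. The median change was 0.01 over the members and 0.06 over all named genes. No test of the list as a whole was made, so these shares are a description. The count of 6 rises became 2 without luciferase 3, blank 5 or blank 6, 3 without luciferase 1, 2 or 4, and 10 without blank 7, and the count of 2 falls became 1 without luciferase 1, luciferase 3 or blank 5 and 3 without blank 6. Over the same omissions, 9.12% to 23.3% of all named genes rose and 5.48% to 9.31% fell.

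The 42 genes that did not pass lay between -0.37 and 0.33, and for 38 of them the whole 95% interval was within 1.5-fold either way. The 4 whose interval reached that size were *Syt4*, *Sv2a*, *Unc13a* and *Rph3a*. The luciferase and blank arrays did not overlap for 14 members, or 28%, with 8 above and 6 below. Of all named genes 37.6% did not overlap, with 24.6% above and 13.0% below. Among the 8 members past the threshold, 7 did not overlap, and the exception was *Slc17a7*. The balance of directions moved with the scaling. As deposited, 75% of the members past the threshold were higher (66.4% of all named genes past it), after quantile normalization 3 rose and 9 fell (25%, against 47.8%), and after every array was centred on its own median 2 rose and 9 fell (18.2%, against 37.4%). The 8 called members kept their direction under all 17 alternatives that were tried, but only *Doc2b*, *Syn2* and *Sh3gl3* passed under each of them.

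**Figure D1:**
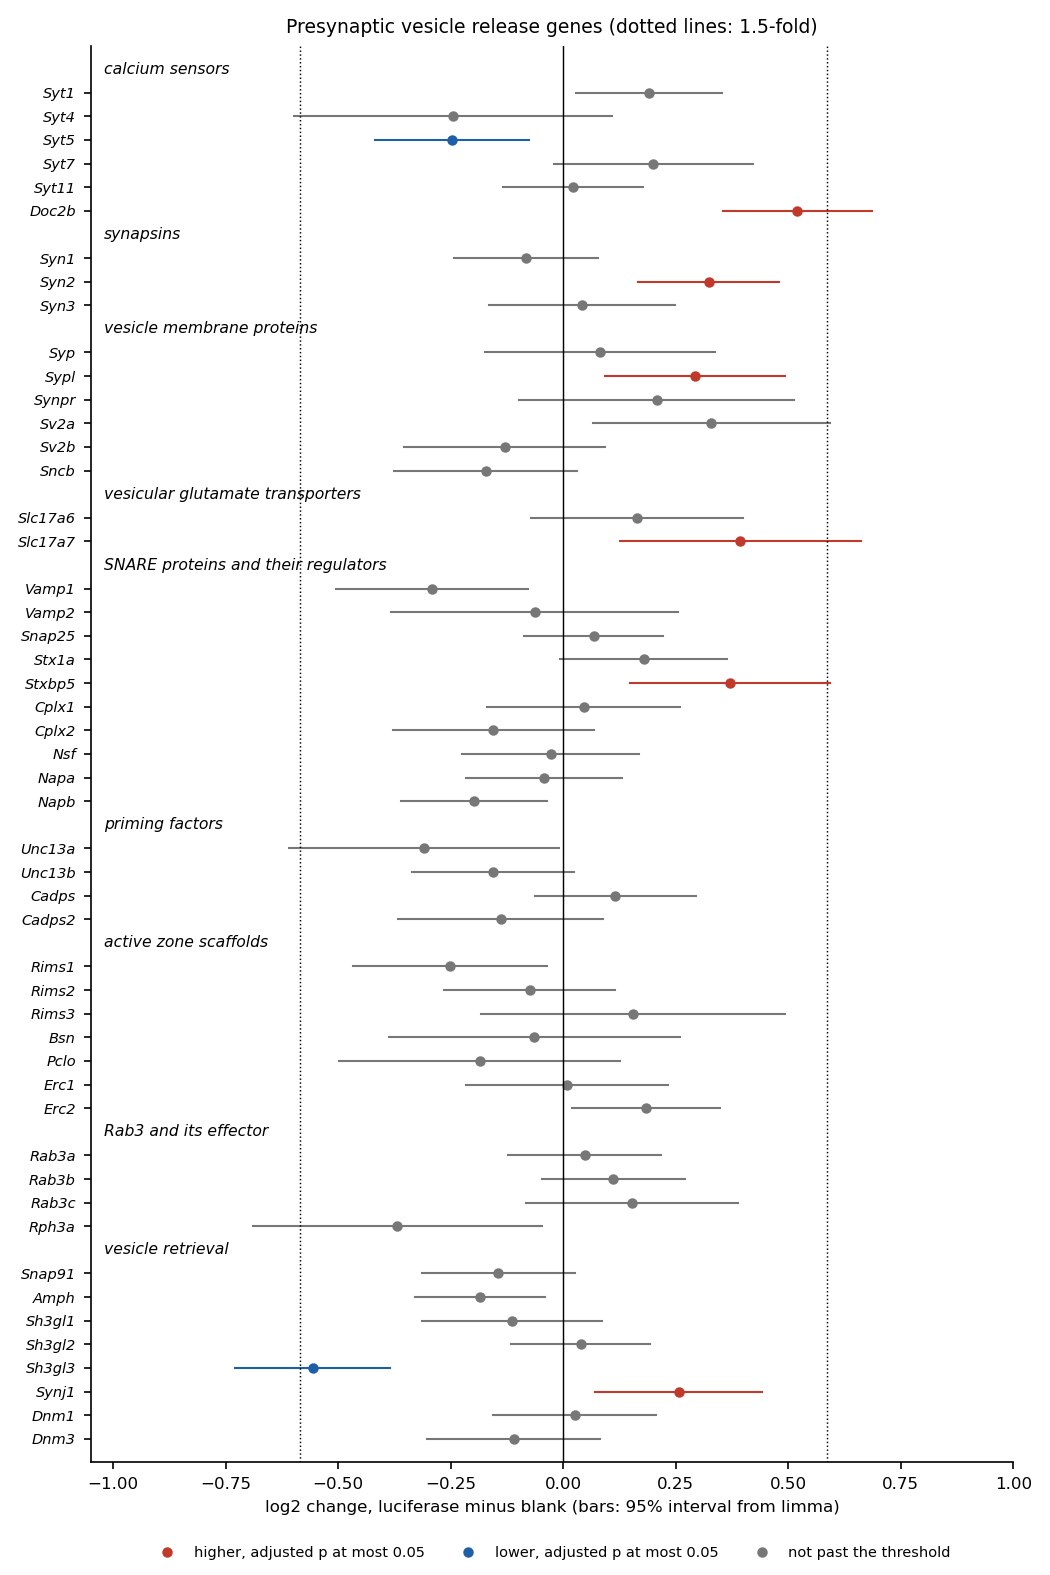
Log2 change of each of the 50 measured genes, luciferase minus blank, on the x axis, by role on the y axis, with the 95% interval from limma as bars and 1.5-fold as dotted lines. The 6 red points (higher) and 2 blue points (lower) passed the adjusted p, and all 50 points lie between the dotted lines.

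Neuron markers stood at similar levels in both groups, and astrocyte markers were higher in the luciferase cultures. All 12 neuron markers reached a level of 50, and their summed level was 60956 to 62460 on the luciferase arrays and 59575 to 62456 on the blank arrays, with 1 of the 12 (*Dcx*, lower) past the threshold. Of 18 astrocyte markers 16 reached it (not *Gjb6* and *Gjb2*), 10 rose and none fell, and their summed level was 34061 to 36949 on the luciferase arrays against 26070 to 28607 on the blank arrays. In such bulk samples fewer cells of a type and less RNA per cell cannot be told apart. The summed level of 10 progenitor and dividing cell markers was also higher in the luciferase cultures (6177 to 7056 against 5351 to 5685), though only *Pax6* and *Hes5* passed the test. *Pcna*, which did not pass, was the largest part of that sum, and the other 9 summed to 3106 to 3485 against 2718 to 2746. The division markers *Mki67*, *Top2a*, *Cdk1* and *Birc5* each overlapped between the groups and did not pass. Of 8 vascular and meningeal markers 1 rose, 3 fell and 4 did not pass, and their summed level was 706 to 921 against 1147 to 1280. *Dcn*, a matrix proteoglycan, carried that difference, since the other 7 summed to 341 to 381 against 340.2 to 387. The other called vascular and meningeal markers were near the level minimum of 50. Over all arrays *Pdgfrb* (higher) was at 38.0 to 83.8, *Flt1* (lower) at 48.8 to 70.9 and *Col1a2* (lower) at 36.7 to 61.4. Of 12 microglia markers 9, among them *Aif1* and *Cx3cr1*, stayed under 50 on all arrays. Of 10 measured oligodendrocyte lineage markers 1 rose and 1 fell, and their summed level overlapped between the groups (6599 to 8082 against 7160 to 7345). The part of these cell types in the changes of the presynaptic genes was not tested.

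Blank array 7 stood apart from the other blank arrays. It was the highest of the 3 blank arrays for 33 of the 50 members, and its members' median was 0.13 above the mean of the other blank arrays on the log2 scale, where blank 6 lay 0.08 below the mean of its partners. Over all 12315 named genes the same value for blank 7 was 0.10. In the other 57 tested probe sets of the members, which have lower levels than the probe set that stands for the gene, the median of blank 7 was -0.01, and over the other 8221 probe sets of all named genes it was 0.06. Without blank 7, 10 members (20%) rose and 2 (4%) fell, in place of 6 and 2, beside 23.3% and 9.31% of all named genes: *Rab3c*, *Rims3*, *Slc17a6*, *Stx1a*, *Sv2a* and *Vamp1* passed, and *Synj1* and *Syt5* no longer did.

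**Figure D2:**
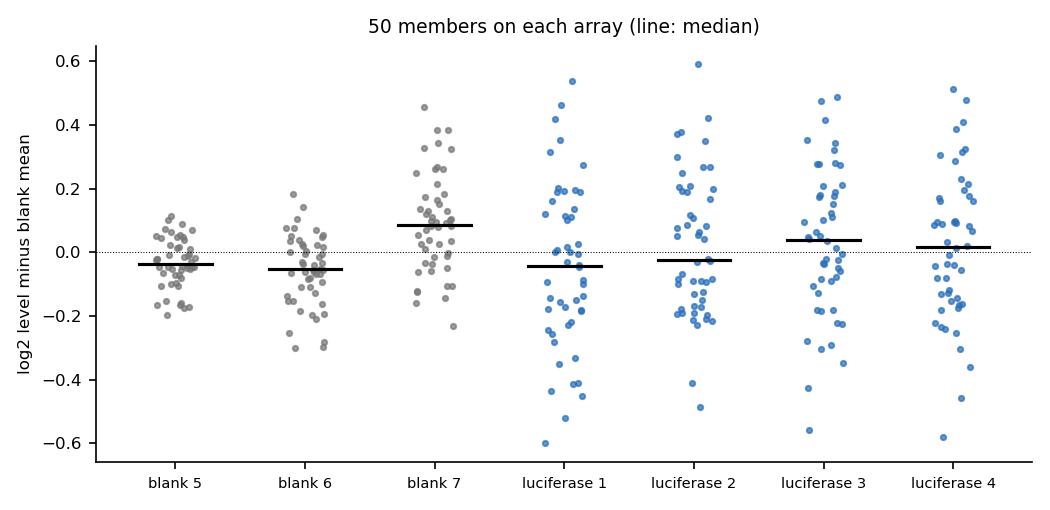
Log2 level of the 50 members on each array minus the mean of the 3 blank arrays (y axis), with 1 point for a gene and a line at the median of each array. The medians lie between -0.05 and 0.09, and blank 7, at 0.09, is the highest of the 7 arrays.

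Among the calcium sensors 1 rose, 1 fell and 4 did not pass. For this and each role below, the share of all named genes that passed was 25.4%. The roles hold few genes, and no role was tested as a set. *Doc2b*, a soluble protein that binds calcium with high affinity and acts in spontaneous and delayed release, had the largest rise among the probe sets that stand for the members. For the mean of all probe sets of a gene its change was 0.42, below *Stxbp5*, *Rab3c* and *Syn2*. Its levels were 759, 786, 726 and 728 on luciferase arrays 1 to 4 and 511, 499.7 and 558 on blank arrays 5 to 7. Every luciferase array lay well above every blank array. The change was 0.52 on the log2 scale (standard error 0.074, adjusted p = 0.0020), or 1.43-fold, and its other tested probe set, at 159 to 185 against 124 to 152, gave 0.31 (adjusted p = 0.038).

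*Syt5*, a calcium-binding synaptotagmin, moved the other way. Its levels were 660.0, 693, 614 and 670 in luciferase neurons and 770, 744 and 832 in blank neurons, with a single probe set. The groups did not overlap, and the change was -0.25 (standard error 0.076, adjusted p = 0.043), or 1.19-fold lower. It passed in 9 of the 17 alternatives, and the highest adjusted p among them was 0.103.

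*Syt1*, the sensor of fast synchronous release in the forebrain, stood at 6182, 6496, 6892 and 6434 in luciferase neurons and 5480, 5971 and 5639 in blank neurons. Its arrays did not overlap either, and yet the change of 0.19 (95% interval 0.03 to 0.35) did not pass (adjusted p = 0.084). *Syt7*, the sensor of slow and asynchronous release, was at 1678, 1991, 2093 and 1967 against 1736, 1506 and 1802, a change of 0.20 (adjusted p = 0.164) with overlap. *Syt4*, which lacks a full calcium site, was on its brightest probe set at 2274 to 2555 in luciferase neurons and at 2607, 2355 and 3977 in blank neurons. Blank 7 was the highest of all arrays, and the change of -0.24 had a 95% interval from -0.60 to 0.11, and its other probe set gave -0.48 (adjusted p = 0.076). *Syt11*, which does not bind calcium, was at 3278, 3209, 3513 and 3310 against 3169, 3365 and 3300, with a change of 0.02. *Syt2*, the fast sensor of many hindbrain synapses, had 3 probe sets that stayed under 50 on all arrays, the highest at 37.2 in luciferase and 37.0 in blank neurons. Whether the changes of *Doc2b* and *Syt5* differ from those of the other sensors was not tested.

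**Figure D3:**
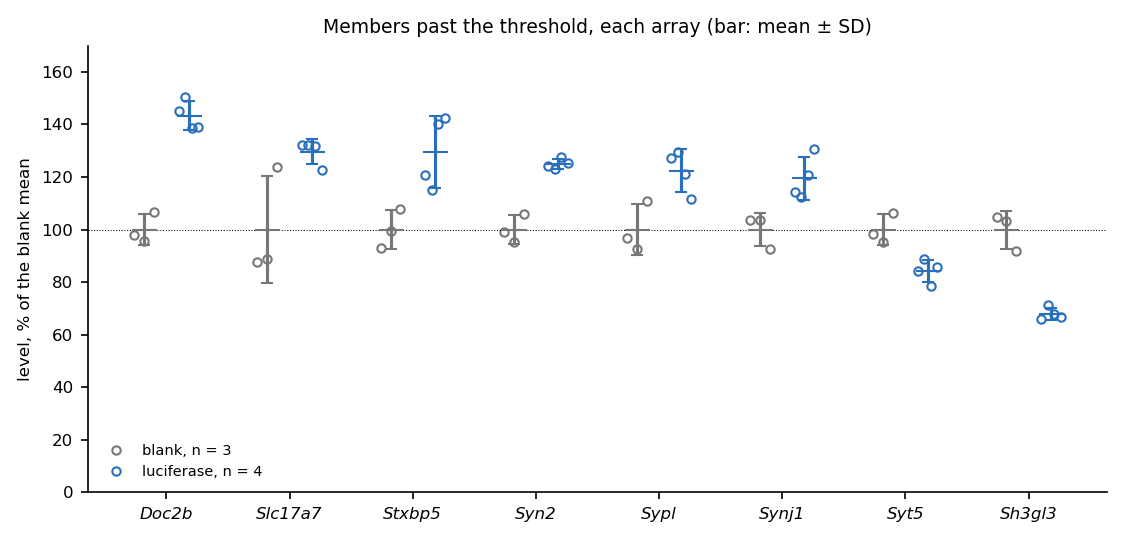
Level of the 8 members past the threshold on each array (y axis, % of the mean of the 3 blank arrays, from 0), with blank arrays in grey, luciferase arrays in blue, and bars for the mean ± SD of each group. Luciferase arrays lie above blank for the 6 genes on the left, apart from an overlap at *Slc17a7*, and below it for *Syt5* and *Sh3gl3*.

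The synapsins coat vesicles and tether them to each other and to actin in the reserve pool. *Syn2* rose while *Syn1* and *Syn3* did not pass. *Syn2* was at 3585, 3548, 3683 and 3613 in luciferase neurons and 2855, 2749 and 3053 in blank neurons. The luciferase arrays lay close together and all above the blank arrays, and the change was 0.32 (standard error 0.070, adjusted p = 0.011), or 1.25-fold. The probe set 1449030_at of the same gene gave the largest rise of any member probe set, with 2284, 2082, 2516 and 2399 against 1431, 1241 and 1182. That is a change of 0.85 (standard error 0.095, adjusted p = 7.0e-04), or 1.81-fold. Its probe sets 1460230_at and 1435511_at rose by 0.50 and 0.39, and 1458105_at, at 52.1 to 67.2 against 48.6 to 53.5, gave 0.20 without passing (adjusted p = 0.151). So 4 of 5 tested probe sets rose, by 0.32 to 0.85.

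*Syn1*, the major synapsin of most terminals, was at 2438, 2610.1, 2722 and 2691 in luciferase neurons and 2801, 2803 and 2699 in blank neurons. The groups overlapped, and the change was -0.08 with a 95% interval of -0.24 to 0.08. *Syn3*, the synapsin of early development, was at 555, 498, 588 and 609 against 564, 575 and 499, a change of 0.04. Its dimmer probe set 1421248_at fell instead, with 66.1, 76.7, 68.9 and 70.98 against 97.2, 87.5 and 86.4. There the groups did not overlap and the change was -0.35 (standard error 0.081, adjusted p = 0.014), while the third probe set of the gene, at 271 to 321 against 276 to 327, gave a change of -0.0035.

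The promoters of *Syn1*, which did not pass, and *Syn2*, which did, are shown to set the pair side by side. RefSeq windows of 300 bases (250 before and 50 after the annotated start, GRCm38.p6) were given for 44 of the 52 members, 58 windows in all, and for *Syn2* the first of 2 is printed. Capitals mark matches on either strand to 4 motifs: the cAMP response element TGACGTCA, the GC box GGGCGG, the CCAAT box CCAAT and TTCAGCACC, the first part of the RE1 element bound by the neuronal repressor REST. Overlapping matches were all marked. The windows are read 5′ to 3′ on the strand of the gene, at chrX:20920869-20921168 on the minus strand for *Syn1* and chr6:115134652-115134951 on the plus strand for *Syn2*.
Syn1: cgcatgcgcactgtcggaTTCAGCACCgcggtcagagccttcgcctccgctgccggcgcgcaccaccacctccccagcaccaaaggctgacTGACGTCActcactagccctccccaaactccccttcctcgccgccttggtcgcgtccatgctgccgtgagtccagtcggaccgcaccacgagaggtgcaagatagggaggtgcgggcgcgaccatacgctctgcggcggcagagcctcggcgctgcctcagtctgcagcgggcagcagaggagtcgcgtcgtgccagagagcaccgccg
Syn2: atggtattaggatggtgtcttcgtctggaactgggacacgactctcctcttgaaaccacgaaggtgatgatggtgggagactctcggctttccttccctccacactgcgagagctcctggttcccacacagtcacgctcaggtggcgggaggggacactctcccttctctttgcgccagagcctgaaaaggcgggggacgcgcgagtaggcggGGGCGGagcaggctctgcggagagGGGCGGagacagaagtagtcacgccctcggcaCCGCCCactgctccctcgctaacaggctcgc
The *Syn1* window holds 1 cAMP response element and 1 match to the first part of RE1, and no GC box in these letters. The printed *Syn2* window holds 3 GC boxes and none of the other 3 motifs, and the *Syn2* window that is not printed holds a CCAAT box. Over the member windows, 5.17% held the cAMP response element (*Napa*, *Sh3gl2* and *Syn1*), where 1.79% of all 32851 windows did, 63.8% held a GC box (35.7% of all), 27.6% a CCAAT box (37.4% of all) and 3.45% the first part of RE1 (*Syn1* and *Unc13a*; 0.371% of all). A match is a description of the letters and not a bound site.

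Of the vesicle membrane proteins, 1 of 6 measured members rose and none fell. *Sypl*, a synaptophysin-like protein that is also found outside neurons, was at 771, 786, 734 and 676 in luciferase neurons and 586, 560.4 and 672 in blank neurons. The groups just did not overlap, with luciferase 4 close above blank 7, and the change was 0.29 (standard error 0.089, adjusted p = 0.040), or 1.23-fold. A second probe set, at 65.6 to 73.0 against 46.0 to 64.8, rose by 0.39 (adjusted p = 0.036), and the other 3 gave 0.05 to 0.30 without passing. Its relatives did not pass. *Syp*, synaptophysin, the most used vesicle marker, was at 3086, 3967, 3754 and 3212 against 3190.0, 2990.4 and 3741, a change of 0.08. *Synpr*, synaptoporin, was at 1641, 1374, 1443 and 1096 against 1169, 1352 and 1066, a change of 0.21 (adjusted p = 0.288).

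The SV2 proteins are vesicle glycoproteins that aid priming and, as a class, bind botulinum toxin. *Sv2a* was at 1440.4 to 1675 in luciferase neurons and at 1257, 1058 and 1512 in blank neurons, a change of 0.33 that did not pass (adjusted p = 0.068). Its 95% interval ran from 0.07 to 0.59, and without blank 7 it passed. *Sv2b* gave -0.13, and *Sv2c* had a single probe set at 12.7 and 13.1, under the level minimum. *Sncb*, beta-synuclein, gave -0.17 without passing (adjusted p = 0.191).

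The vesicular glutamate transporters load glutamate into vesicles and mark excitatory terminals. *Slc17a7*, the transporter of most cortical excitatory neurons, was at 1096, 1098, 1094 and 1018 in luciferase neurons and 727, 737 and 1027 in blank neurons. Blank 5 and 6 lay far below the luciferase arrays, and blank 7 lay above luciferase 4. The change was 0.39 (standard error 0.12, adjusted p = 0.040), or 1.31-fold, and it passed in 9 of 17 alternatives. *Slc17a6*, the subcortical and early transporter, was at 369, 352, 367 and 365 against 309.9, 282 and 389, a change of 0.16 (adjusted p = 0.278) with blank 7 again the highest of the blank arrays. Its dimmer probe set 1418610_at had the opposite sign, -0.54 (standard error 0.27, adjusted p = 0.170), with luciferase 1 at 276 and the other luciferase arrays at 113 to 132, against 187 to 257 in blank neurons. Beside them, 10 measured markers of GABA neurons had 1 gene higher and 1 lower, and their summed level overlapped between the groups (9217 to 9906 against 8806 to 9607). The lower gene was *Slc32a1*, the vesicular GABA transporter. It was at 367 to 377 in luciferase neurons and 436 to 455 in blank neurons, a change of -0.25 (adjusted p = 0.023) without overlap. The higher gene was *Calb2*, with a change of 0.77 (adjusted p = 0.0016).

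The 10 SNARE proteins and regulators had 1 member past the threshold. *Stxbp5*, tomosyn, which binds syntaxin and SNAP-25 and so limits the SNARE complexes open to vesicles, was at 401, 382, 464 and 472 in luciferase neurons and 308, 329 and 358 in blank neurons. The groups did not overlap, and the change was 0.37 (standard error 0.099, adjusted p = 0.026), or 1.29-fold. Both of its other probe sets rose as well, by 0.54 and 0.56 (adjusted p = 0.0074 and 0.0043). The core SNARE genes did not pass. *Snap25*, the plasma membrane SNARE, changed by 0.07 (8523 to 9099 against 8095 to 8725), and *Stx1a*, syntaxin-1A, by 0.18 (adjusted p = 0.142). A brighter probe set of *Stx1a*, 1437390_x_at, was left out by its name. It was at 4533 to 5043 against 3891 to 4263, without overlap, and *Stx1a* did not pass with _x probe sets kept. *Vamp2*, the main vesicle SNARE of the forebrain, changed by -0.06 (95% interval -0.38 to 0.25). Blank 7 was at 5078 there and the other blank arrays at 3399 and 3423. The other tested probe set of *Vamp2*, 1420833_at, had the opposite sign, 0.28, without passing (adjusted p = 0.115). *Vamp1*, the vesicle SNARE more used in hindbrain and spinal cord, was just outside the threshold. Its levels were 129, 160.4, 127 and 144 against 172, 176 and 163, with no overlap, a change of -0.29 and an adjusted p of 0.0504, and it passed in 9 of 17 alternatives.

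The complexins clamp and then trigger the assembled complex, and *Cplx1* and *Cplx2* gave 0.05 and -0.16 without passing. NSF and its adaptors take the spent complexes apart. *Nsf* changed by -0.03 and *Napb*, the brain form of SNAP, by -0.20 (2681, 2771, 2675 and 2748 against 3080.4, 2946 and 3343), without overlap but with an adjusted p of 0.072. The *Napb* probe set 1423173_at gave -0.22 (adjusted p = 0.068), also without overlap. Its probe sets 1427470_s_at, 1450888_at and 1452444_at gave 0.02, 0.07 and -0.06, with overlap and without passing. *Napa*, the general form, was at 1495, 1734, 1652 and 1569 against 1733, 1624 and 1621, a change of -0.04. Its dimmer probe set 1416192_at was at 236, 213, 199 and 219.6 in luciferase neurons and 157, 176 and 163 in blank neurons. That probe set rose by 0.39 (standard error 0.083, adjusted p = 0.010), so the call for *Napa* depends on the probe set.

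None of the 4 priming factors, 7 active zone scaffolds and 4 Rab3 genes passed on the probe set that stands for the gene, where 25.4% of all named genes did. Whether these roles differ from that share was not tested. The Munc13 proteins open syntaxin for assembly: *Unc13a* was at 316, 382, 350.1 and 349 against 418, 355 and 542, a change of -0.31 with a 95% interval from -0.61 to -0.01 and an adjusted p of 0.119, and *Unc13b* gave -0.16. The CAPS proteins, which act in dense-core vesicle exocytosis, gave 0.12 for *Cadps* and -0.14 for *Cadps2*. Of the scaffolds, *Rims1*, which tethers calcium channels and vesicles at the release site, was at 1187, 1087, 1275 and 1319 against 1347, 1384 and 1618. Its groups did not overlap and its change was -0.25 (adjusted p = 0.085). *Erc2*, an ELKS family scaffold, did not overlap in the other direction, with 2958, 2744, 2927 and 3162 against 2608, 2531 and 2637 and a change of 0.18 (adjusted p = 0.096). *Rims2*, *Rims3*, *Erc1* and the giant scaffolds *Bsn* and *Pclo* lay between -0.19 and 0.16. Without luciferase 4, *Pclo* passed as lower, and that array held its highest level, 826 against 527 to 607 on the other luciferase arrays.

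*Rab3c*, a small GTPase of vesicle docking, gave different calls on different probe sets. Its brightest probe set was at 3319, 3390.5, 3349.9 and 3155 in luciferase neurons and 2761, 2655 and 3576 in blank neurons. Blank 7 lay above all luciferase arrays there, and the change of 0.15 did not pass (adjusted p = 0.312). The probe set 1449494_at was at 911, 957, 869.9 and 1008 against 640.0, 559.9 and 504. There blank 7 was the lowest of all arrays, and the change was 0.73 (standard error 0.096, adjusted p = 0.0015), or 1.65-fold. The other 2 tested probe sets rose by 0.58 (adjusted p = 0.016) and 0.41 (adjusted p = 0.0069), so 3 of 4 rose while the brightest did not pass. *Rab3a*, the main Rab3 of brain, was at 3597, 3833, 3499 and 3780.2 against 3732, 3644 and 3303, a change of 0.05. *Rab3b* was at 1237, 1322, 1193 and 1234 against 1172, 1105 and 1183, without overlap and with a change of 0.11 (adjusted p = 0.276). *Rph3a*, rabphilin, an effector that binds Rab3 on the vesicle, had a change of -0.37 that did not pass (95% interval -0.69 to -0.05, adjusted p = 0.088), with blank 7 at 1151 and the other 2 blank arrays at 880.2 and 739. Its other tested probe set, 1449961_at, had the opposite sign, with 259.7, 480.2, 431 and 449 against 302, 190.2 and 281, a change of 0.64 that did not pass either (adjusted p = 0.063). These 2 values lie further apart than the probe sets of any other member.

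**Figure D4:**
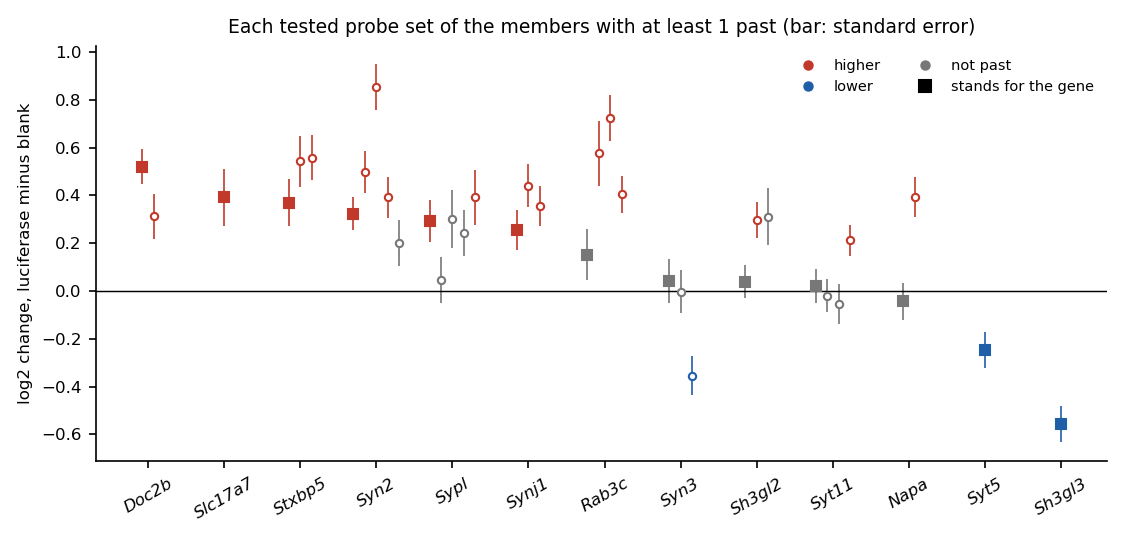
Log2 change (y axis) of each tested probe set of the 13 members with at least 1 probe set past the threshold (x axis), with the standard error as bars and squares for the probe set that stands for the gene. All probe sets lie above 0 for *Doc2b*, *Stxbp5*, *Syn2*, *Sypl*, *Synj1*, *Rab3c* and *Sh3gl2*, while *Syn3*, *Syt11* and *Napa* have values on both sides.

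Over all 107 tested probe sets of the members, 21 rose (19.6%, where 16.2% of all tested probe sets did) and 3 fell (2.80%, against 8.26%). Only 2 passed with at least 1.5-fold, 1449030_at of *Syn2* and 1449494_at of *Rab3c*, where 4.19% of all tested probe sets did so. Of the 30 members with several tested probe sets, 16 had changes of both signs and 14 of a single sign, and no member had probe sets past the threshold in both directions. Besides *Syn3*, *Napa* and *Rab3c*, 2 members passed only on a probe set that does not stand for the gene. *Syt11* rose at 1429315_at, with 2335, 2261, 2401 and 2328 against 2010.6, 2030.0 and 1994 (0.21, adjusted p = 0.042), and 2 further probe sets gave -0.02 and -0.05. With _x probe sets kept, the probe set that stands for *Syt11* was another, at 2799 to 3279 against 3541 to 3711, and it fell by 0.24 (adjusted p = 0.048). *Sh3gl2* rose at 1418792_at, with 1303, 1372, 1388 and 1357 against 1109, 1185 and 1022 (0.30, adjusted p = 0.022). At the level minimum, the tested probe set with the lowest highest value was 1459042_at of *Rims3* at 64.4, and the untested one with the highest was 1443308_at of *Unc13b* at 45.9.

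Vesicle retrieval held the largest fall and a rise. The endophilins bend membrane at the neck of a forming vesicle and recruit synaptojanin and dynamin. *Sh3gl3*, endophilin A3, was at 786, 852, 809.8 and 797 in luciferase neurons and 1253, 1234 and 1095 in blank neurons, from a single probe set. The groups were far apart, and the change was -0.56 (standard error 0.077, adjusted p = 0.0018), or 1.47-fold lower, just short of 1.5-fold. It reached 1.5-fold after quantile normalization, with arrays centred on their medians, with array weights and without blank 7. *Sh3gl2*, endophilin A1 and the major form of brain terminals, was at 2626, 2786, 2747 and 2865 against 2588, 2714 and 2747, a change of 0.04. *Sh3gl1*, endophilin A2, the widely expressed form, was at 472, 473, 477 and 447 against 547, 442 and 535, a change of -0.11 (adjusted p = 0.372). Whether *Sh3gl3* differs in its change from the other endophilins was not tested.

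The promoter windows of *Sh3gl2* (chr4:85205206-85205505, plus strand) and *Sh3gl3* (chr7:82174546-82174845, plus strand) are shown for the same reason, as a pair in which *Sh3gl3* was called on the probe set that stands for the gene and *Sh3gl2* was not, with capitals for the same motifs.
Sh3gl2: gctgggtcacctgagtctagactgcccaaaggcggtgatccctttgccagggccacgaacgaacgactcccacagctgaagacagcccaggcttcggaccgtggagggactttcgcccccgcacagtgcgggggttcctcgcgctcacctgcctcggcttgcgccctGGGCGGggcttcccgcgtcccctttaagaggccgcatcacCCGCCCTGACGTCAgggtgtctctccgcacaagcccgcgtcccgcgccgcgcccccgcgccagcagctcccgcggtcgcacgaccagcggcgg
Sh3gl3: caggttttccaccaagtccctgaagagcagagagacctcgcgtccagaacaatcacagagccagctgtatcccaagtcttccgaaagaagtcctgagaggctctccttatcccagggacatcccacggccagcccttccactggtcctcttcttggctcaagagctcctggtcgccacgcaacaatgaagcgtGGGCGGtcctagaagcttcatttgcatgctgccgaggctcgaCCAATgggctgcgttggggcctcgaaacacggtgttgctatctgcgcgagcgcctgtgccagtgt
The *Sh3gl2* window holds 2 GC boxes, 1 of them next to its cAMP response element, and 70.7% of its bases are G or C. The *Sh3gl3* window holds 1 GC box and 1 CCAAT box and no cAMP response element in these letters, at 58.0% G or C.

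*Synj1*, synaptojanin-1, the phosphatase that strips phosphoinositides from the membrane so that clathrin comes off, was at 3785, 3713, 3996 and 4316 in luciferase neurons and 3427, 3428 and 3069 in blank neurons. The groups did not overlap, and the change was 0.26 (standard error 0.082, adjusted p = 0.048), or 1.19-fold. Its other tested probe sets rose by 0.44 (adjusted p = 0.0084) and 0.36 (adjusted p = 0.015), and the brightest passed in 7 of 17 alternatives. *Amph*, amphiphysin, which links clathrin adaptors to dynamin, was at 3129, 3059, 3115 and 3161 against 3519, 3503 and 3609. Its groups were clearly separate, yet the change of -0.19 had an adjusted p of 0.063. *Snap91*, the neuronal clathrin adaptor AP180, gave -0.14 (adjusted p = 0.189), and the dynamins *Dnm1* and *Dnm3*, which cut the vesicle neck, gave 0.03 and -0.11.

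The other genes of the same pathway were read from a further list of 56, of which 47 were measured. Of these 9 rose, 4 fell and 34 did not pass, with a median change of 0.03. The 4 with the largest changes were *Syt13* (0.80) and *Syt17* (0.57), relatives of the synaptotagmin sensors, *Stx4a* (-0.56), a plasma membrane syntaxin, and *Unc13c* (-0.51), a Munc13 of the cerebellum, at a mean of 48.4 on the luciferase arrays. Of 27 measured clathrin and endocytic adaptor genes, 4 rose and 2 fell, led by *Ap2b1*, a subunit of the AP2 adaptor (-0.82), and of 28 measured postsynaptic scaffold and glutamate receptor genes, 6 rose and 4 fell. Members passed in 16% of cases, the other presynaptic genes in 27.7%, the endocytic genes in 22.2% and the postsynaptic genes in 35.7%, beside 25.4% of all named genes. The differences between these shares were not tested.

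**Figure D5:**
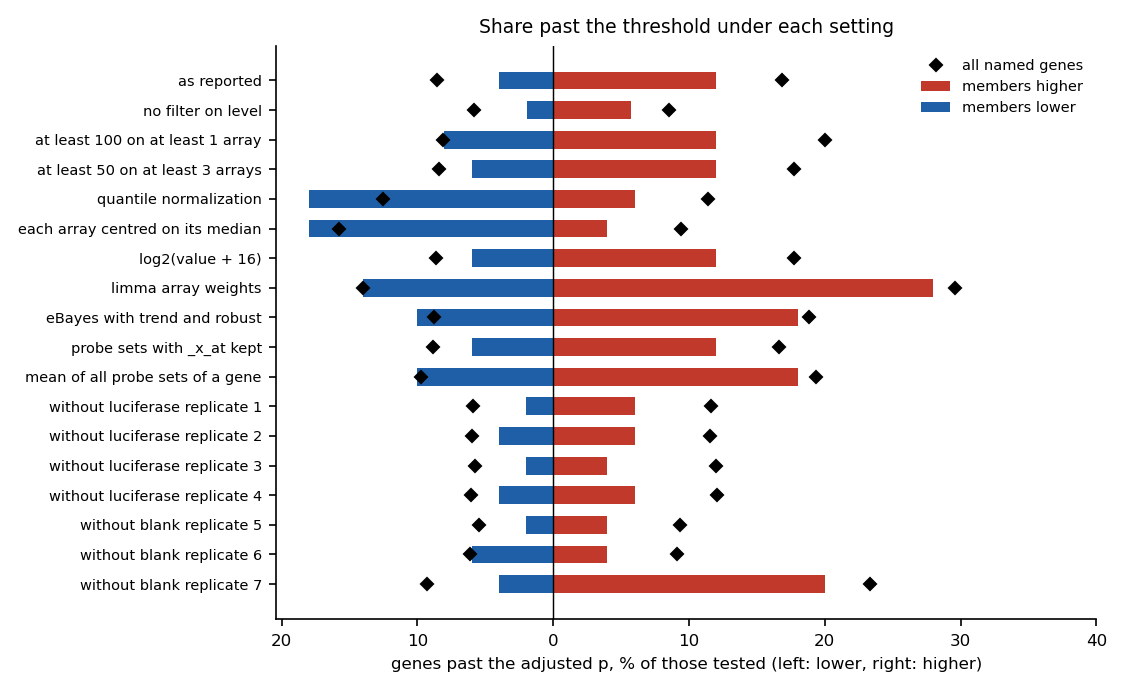
Share of the members past the adjusted p under each setting (x axis, % of genes tested, with lower to the left and higher to the right), with diamonds for all named genes. The share of members that rose is below the diamond in each of the 18 settings, and the share that fell is furthest above it after quantile normalization.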

How the data were processed

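The authors hybridised total RNA to Affymetrix mouse arrays, normalized them with RMA (no version is named in the sources used here), and deposited 1 intensity per probe set and sample on a linear scale, from 4.69 to 23763. Whether both groups were normalized in 1 run is not stated. The median of the tested probe sets was 237 to 241 on the luciferase arrays and 224, 216 and 235 on blank arrays 5 to 7. The source of that difference was not tested. The deposited columns of the blank samples start 1 probe set too low; after a move by 1 the group means had r = 0.995 on the log2 scale, against 0.421 as deposited. The labels name Trizol where the methods name another extraction kit, and the blank samples carry a description that also speaks of hairpin treatment. Groups follow the titles and the treatment field.

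Of 45101 probe sets, 64 controls and 2441 with _x in the name were left out, and 22748 of the other 42596 reached 50 on at least 1 array. The functions lmFit and eBayes of limma 3.58.1 (R 4.3.3) compared log2 intensities between the groups on 7 arrays without covariates, and p-values were adjusted over all 22748 after Benjamini and Hochberg. Probe sets were named from the array's annotation, updated through Entrez IDs. Of those tested, 20536 name 1 gene, 451 several and 1761 none, and only the first were used. Where a gene had several, the brightest by its mean over the arrays represents it. Array values were given for members past the threshold on any probe set and for their relatives. For other lists, up to 4 genes with the largest changes were named. The members and lists were chosen with earlier results of these data known. Precision is limited by the number of arrays. The 17 alternatives changed the level minimum, the scaling, the added constant, the model, the probe set rule or left out an array.

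Promoter windows came from a RefSeq table of GRCm38.p6, in which *Doc2b*, *Syt4*, *Rims2*, *Syt7*, *Vamp2*, *Snap25*, *Syn3* and *Syt5* were not listed.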

Additional observations from a re-analysis of the deposited data

Results flagged for a closer look

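A single result was flagged by a screen of the spread within the luciferase group. The level of *Slc17a7*, the vesicular glutamate transporter of cortical excitatory neurons, was 1018 on luciferase array 4, below the other 3 luciferase arrays, which lay between 1094 and 1098. The gap took up 0.943 of the range of the 4 arrays. That value is the gap that was found and not the limit of the screen. Chance alone puts about 1 in 20 groups past the limit, and the luciferase values of all members were screened. A single flag can therefore be met by chance. Blank values are not part of this count: *Slc17a7* itself was at 1027 on blank 7 and at 727 and 737 on the other blank arrays.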

How the results depend on the processing

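No paired analysis was made, since the labels name no pairs: the luciferase arrays carry the replicate numbers 1 to 4 and the blank arrays 5 to 7. Whether wells of both groups shared a plate is not stated. Over the 17 alternatives the 8 called members kept their direction, *Doc2b*, *Syn2* and *Sh3gl3* stayed past the threshold in all, and 22 of the 42 members that did not pass did so in no alternative either. The number of members that rose was 6 as reported, 3 with no filter on level, 3 after quantile normalization, 2 with each array centred on its median and 14 with array weights. As shares of members these were 12%, 5.77%, 6%, 4% and 28%. Of all named genes, 16.9%, 8.51%, 11.4%, 9.44% and 29.6% rose in the same settings. The number that fell was 2 as reported, 1 with no filter, 4 at a minimum of 100, 9 after quantile normalization, 9 with centred arrays, 7 with array weights, 5 with a trended and robust eBayes and 5 for the mean of a gene's probe sets. As shares of members these were 4%, 1.92%, 8%, 18%, 18%, 14%, 10% and 10%. Of all named genes, 8.55%, 5.84%, 8.12%, 12.5%, 15.8%, 14.0%, 8.76% and 9.74% fell in the same settings. A fall of at least 1.5-fold, 0 as reported, was found for 1 member after quantile normalization, with centred arrays and with array weights. Leaving out 1 array at a time gave 2 to 10 members that rose, 1 to 3 that fell and 0 to 1 that fell by 1.5-fold. Over the same omissions, 9.12% to 23.3% of all named genes rose and 5.48% to 9.31% fell. The cause of these shifts was not tested.

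Of the other presynaptic genes, 9 rose as reported, 3 with centred arrays, 14 with array weights and 5 to 12 with 1 array left out, and 4 fell as reported, 2 with no filter, 7 after quantile normalization, 8 with centred arrays and 2 to 4 with 1 array left out. Of the clathrin and endocytic genes, 4 rose as reported, 2 after quantile normalization, 1 with centred arrays and 1 to 4 with 1 array left out, and 2 fell as reported, 1 for the mean of probe sets and 1 to 2 with 1 array left out. Of the postsynaptic genes, 6 rose as reported, 3 with centred arrays, 10 with array weights and 2 to 10 with 1 array left out. Of the neuron markers, 0 rose and 1 fell as reported; 3 rose with array weights, 3 rose and 0 fell for the mean of probe sets, 3 fell with centred arrays, and 0 to 2 rose with 1 array left out. For the astrocyte markers, 10 rose as reported and 7 to 11 with 1 array left out. Beside these counts stand the shares of all named genes given above for each setting. For the mean of probe sets, 19.3% of all named genes rose.

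The members whose sign turned had not passed as reported. After quantile normalization the change was -0.017 for *Syt11*, -0.040 for *Syn3* and -0.075 for *Erc1*. With centred arrays it was -0.075 for *Syt11*, -0.054 for *Syn3*, -0.014 for *Syp*, -0.028 for *Snap25*, -0.050 for *Cplx1*, -0.088 for *Erc1*, -0.048 for *Rab3a*, -0.057 for *Sh3gl2* and -0.071 for *Dnm1*. With _x probe sets kept it was -0.24 for *Syt11* (adjusted p = 0.048) and -0.17 for *Rab3a*. With array weights it was -0.0042 for *Syn3*, 0.11 for *Vamp2*, -0.036 for *Cplx1*, 0.095 for *Nsf* and -0.013 for *Rab3a*. For the mean of a gene's probe sets it was -0.11 for *Syn3*, -0.19 for *Slc17a6*, 0.11 for *Vamp2*, -0.0092 for *Snap25*, 0.17 for *Napa* (adjusted p = 0.0498), 0.025 for *Pclo*, -0.10 for *Erc1*, 0.14 for *Rph3a* and 0.034 for *Dnm3*. With 1 array left out it ran from -0.0051 to 0.040 for *Syt11*, from -0.054 to 0.073 for *Erc1*, from -0.0074 to 0.074 for *Dnm1*, from -0.021 to 0.10 for *Syn3*, from -0.16 to 0.13 for *Vamp2*, from -0.070 to 0.12 for *Cplx1*, from -0.11 to 0.058 for *Nsf*, from -0.0052 to 0.083 for *Rab3a* and from -0.19 to 0.052 for *Bsn*. No depth is known for arrays, and 2 members, *Syt2* and *Sv2c*, stayed under the level minimum.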
